A study of Mus musculus with 16 samples.

Results

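The dystrophin and dystroglycan complex was followed through 9 genes, taken by symbol from the table of estimated counts: Dag1, Dmd, Utrn, Sgca, Sgcb, Sgcd, Sgce, Dtna and Sspn. All 9 were among the 24411 genes of the table. They were measured in 16 RNA sequencing libraries of mouse muscle stem cells (MuSCs, the Pax7-positive stem cells that lie on the muscle fiber), with 4 libraries in each of 4 groups. Control libraries, labelled wild type, came from uninjured muscle or from tibialis anterior muscle taken 3 days after 10 µl of notexin, a snake venom toxin that destroys fibers. The TRF2 MuSC-cKO libraries, labelled TRF2 knockout and called cKO here, came from the same states. In these mice floxed Terf2 is removed by a tamoxifen-inducible Cre under Pax7, so that deletion is driven in cells that express Pax7. Cells were sorted as negative for blood, endothelial and Sca1 surface markers and positive for α7-integrin with VCAM1 or CD34. Per the study's methods tamoxifen injections began in young adult mice, and both sexes were used. Which age and sex stand behind each library was not found in these sources.

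Dystroglycan, the product of Dag1, is cut into an outer subunit that binds laminin and other matrix proteins and a subunit that spans the membrane. Dystrophin, the product of Dmd, holds the inner end and ties it to actin, and utrophin (Utrn) is its autosomal homologue. The sarcoglycans (Sgca, Sgcb, Sgcd and Sgce) and sarcospan (Sspn) are membrane proteins that stabilize this link, and α-dystrobrevin (Dtna) binds dystrophin from inside the cell. Loss of dystrophin causes Duchenne muscular dystrophy. In MuSCs, which sit between the fiber and the basal lamina, dystrophin and dystroglycan are known for their part in cell polarity and asymmetric division.

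In GENCODE M21, on the GRCm38 build that the submitters' processing notes name, Dag1 lies on chromosome 9 from 108204634 to 108263958 on the minus strand. Dmd lies on chromosome X from 82948870 to 85206141 on the plus strand, and Utrn on chromosome 10 from 12382188 to 12869365 on the minus strand. The sarcoglycan genes lie at chr11:94962791-94976327 (Sgca), chr5:73632749-73647790 (Sgcb), chr11:46896253-47988969 (Sgcd) and chr6:4674350-4747207 (Sgce), all on the minus strand. Sspn lies at chr6:145931641-145965223 on the plus strand. RefSeq start-site windows (GRCm38.p6) matched 7 of the 9 genes, all but Dtna and Sgce. The 250 bases upstream of the start are given on the gene's strand for Dag1 and Dmd, the member that differed most clearly between genotypes and the member with the lowest adjusted p after injury. In the windows of Dag1 (chr9:108263959-108264208) and of full-length Dmd (chrX:82948620-82948869), capitals mark E-boxes (CANNTG, the motif bound by myogenic factors) and GC boxes (GGGCGG), searched on both strands with no overlap between them. In the window before the start of a short Dmd transcript inside the gene (chrX:85048045-85048294), capitals mark stretches of 4 runs of at least 3 G separated by 1 to 7 bases, on either strand, the pattern of G-quadruplex motifs.
Dag1: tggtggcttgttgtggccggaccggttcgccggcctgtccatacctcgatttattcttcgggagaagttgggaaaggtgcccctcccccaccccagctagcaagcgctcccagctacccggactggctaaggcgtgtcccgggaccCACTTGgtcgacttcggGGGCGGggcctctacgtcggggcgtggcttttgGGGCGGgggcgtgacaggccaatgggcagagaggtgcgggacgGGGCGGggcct
Dmd full-length start: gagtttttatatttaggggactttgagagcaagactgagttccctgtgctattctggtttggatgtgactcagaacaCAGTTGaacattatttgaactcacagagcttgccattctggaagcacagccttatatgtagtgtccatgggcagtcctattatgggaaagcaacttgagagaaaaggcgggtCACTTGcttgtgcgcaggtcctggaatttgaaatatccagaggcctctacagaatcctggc
Dmd short-transcript start: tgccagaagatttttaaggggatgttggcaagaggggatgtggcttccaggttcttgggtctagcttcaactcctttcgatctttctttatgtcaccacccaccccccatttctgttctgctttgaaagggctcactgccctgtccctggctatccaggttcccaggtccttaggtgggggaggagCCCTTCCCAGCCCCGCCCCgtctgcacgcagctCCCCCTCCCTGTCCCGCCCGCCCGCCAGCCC
The Dag1 window shown had a G and C content of 67.6%, with 1 E-box and 3 GC boxes. Another Dag1 start window (chr9:108263816-108264065, not shown) overlaps it and had 74.8%, also with 1 E-box and 3 GC boxes and without the G-run pattern. The full-length Dmd window had 45.2%, with 2 E-boxes and no GC box. Over 32851 windows of the same length the median G and C content was 52.4%, 66.2% held an E-box, 32.7% a GC box and 16.7% the G-run pattern. Of the windows shown, the G-run letters were in neither of the first 2 and in 2 stretches of the third, all read as C runs on the strand shown. These matches are letters in a window, and binding was not measured here.

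Library totals ran from 620506 to 1351130 estimated counts, and replicates of a group differed by more than sampling noise (chi-square per degree of freedom of at least 2.97). Pairs with replicate 3 of the 3 DPI libraries labelled cKO had values of 17.4 to 18.6, against at most 7.14 in all other pairs. The targeted gene, Terf2, had 71.5, 94.5, 66.3 and 73.1 CPM (counts scaled to library size, with TMM factors over all libraries) in uninjured control libraries and 49.7, 46.8, 58.7 and 27.2 CPM in uninjured cKO libraries. The groups did not overlap by this CPM, at a log2 fold change of -0.62 ± 0.27 (SE) and an adjusted p of 0.199. With library size alone they did, at 61.6 CPM in cKO replicate 3 and 56.3 CPM in control replicate 4, and in TPM too. At 3 DPI Terf2 had 35.5, 48.6, 48.2 and 42.8 CPM in control libraries and 52.6, 21.9, 66.9 and 89.7 CPM in the libraries labelled cKO, so that 3 of these 4 lay above every control library. The counts at 3 DPI therefore do not check the cKO label there. The part of Terf2 that is floxed is not given in the sources used here, and a count over the whole gene can include reads from outside it. Among the 3 DPI libraries labelled cKO, replicate 3 had a count for 15387 genes against at least 19996 in the other 15 libraries. The summed level of 9 MuSC markers ran from 3460 to 5360 CPM in uninjured control, 1880 to 2860 in uninjured cKO, 798 to 1140 in 3 DPI control and 443 to 619 in 3 DPI libraries labelled cKO. The summed level of 6 macrophage markers ran from 47.8 to 163 CPM in the uninjured libraries and from 1580 to 5110 CPM at 3 DPI, although the sort was set against blood cells. None of these markers was at 0 in every library of a group. In such bulk libraries, fewer cells of a type and less RNA per cell cannot be told apart.

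Levels were compared between genes as TPM (transcript abundance, which divides the counts by transcript length). In uninjured control MuSCs Dag1 was the most abundant member at 927 ± 147 TPM (SD, n = 4), followed by Utrn at 168 ± 22.1 and Dmd at 88.3 ± 14.3. The sarcoglycan and sarcospan transcripts formed a middle group, with Sgce at 58.3 ± 17.6 TPM, Sgca at 57.5 ± 20.4, Sspn at 49.4 ± 11.01 and Sgcb at 40.1 ± 5.35. Dtna stood at 16.9 ± 3.93 TPM and Sgcd at 2.97 ± 2.09. Dag1 and Utrn, Utrn and Dmd, Sgcb and Dtna, and Dtna and Sgcd did not overlap between libraries, whereas the other neighbours in this order did. Dag1 and Utrn kept the first and second place in the other 3 groups. Dmd went from the third place to the eighth in 3 DPI control libraries, at 15.7 ± 6.58 TPM, and to the seventh in 3 DPI libraries labelled cKO, at 14.2 ± 6.78 TPM. Sgcd was the lowest in every group, with at most 9 counts in any library.

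**Figure D1:**
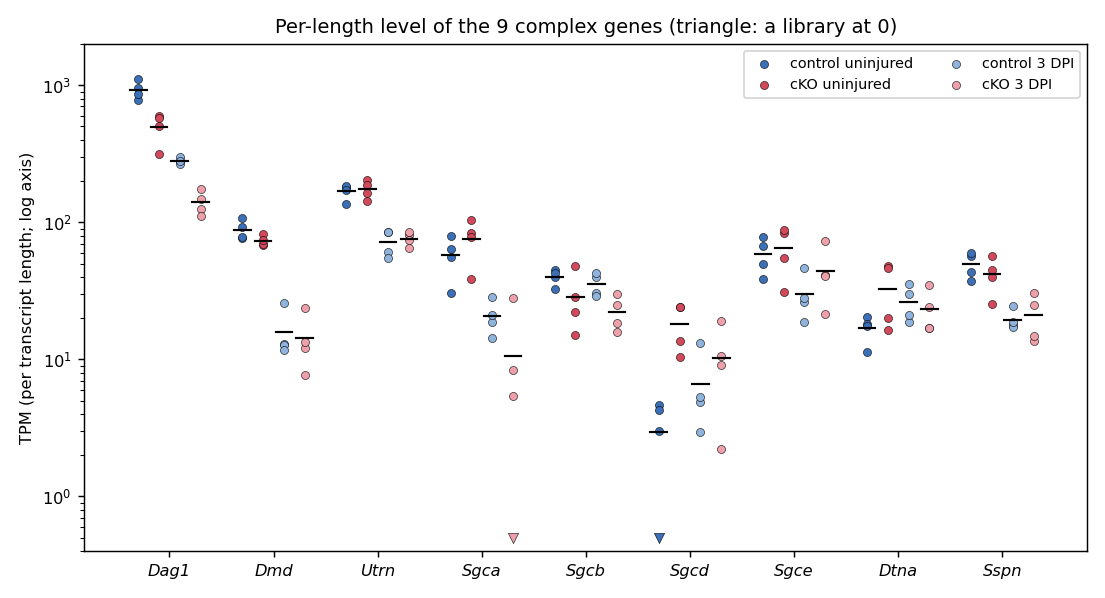
TPM of the 9 genes on a log axis, with a point for each library, a black bar for the group mean and a triangle for a library at 0. Dag1 lies highest in every group, and Dmd lies below Sgcb and Sgce at 3 DPI.

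Salmon's estimate of the mean transcript length of each gene can be read from the ratio of the estimated counts to the rescaled counts. It was calibrated on 182 genes with 1 annotated transcript, whose estimates had quartiles of 0.96 and 1.01 times their annotated length. For Dmd it came to 14.10 ± 0.02 kb (SD, n = 4) in uninjured control, 14.07 ± 0.02 in uninjured cKO, 14.06 ± 0.01 in 3 DPI control and 14.06 ± 0.01 in 3 DPI libraries labelled cKO. The annotated full-length transcript has 14.91 kb and the longest short coding transcript 4.44 kb. The Dmd counts were thus assigned in all 4 groups to transcripts near full length. The values for Dag1 lay between 5.41 and 5.56 kb in every library, against 5.66 kb for its longest coding transcript. The values for Dtna, which had 21 to 63 counts per library, ranged from 2.71 to 6.43 kb.

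The first comparison asked what TRF2 loss changes in resting MuSCs. Dag1 was lower in uninjured cKO MuSCs and was the only member called, where a call needed an adjusted p under 0.02 (edgeR's quasi-likelihood test with Benjamini-Hochberg adjustment over all genes) and a fold change over 1.5. Dag1 had 2800, 2306, 1750 and 2301 CPM in the control libraries and 567, 1205, 1129 and 1031 CPM in the cKO libraries. Every cKO library lay below every control library, and cKO replicate 1 lay lowest. The log2 fold change was -1.09 ± 0.21 (SE), 2.14-fold lower, at an adjusted p of 0.000491. Of 14048 genes tested, 2.63% were called lower and 0.584% higher (370 and 82 genes), against 1 lower and 0 higher of the 8 members tested. Leaving out control replicate 1, 2 or 4 or cKO replicate 1 or 3 gave 214 to 259 lower and 40 to 51 higher calls. Scaling by library size alone gave 212 lower and 176 higher calls. On the rescaled counts the call of Dag1 was lost at a log2 fold change of -1.13 and an adjusted p of 0.0655, a table in which 11 genes were called lower and 6 higher. The MuSC markers moved with Dag1, with 6 of 9 called lower, among them Vcam1, Itga7 and Cd34, whose products were used in the sort. Of 6 fibro-adipogenic progenitor markers, Col15a1 (group means of 829 and 159 CPM) and Dpt (266 and 78.3 CPM) were called lower in cKO and Dcn (51.6 and 109 CPM) higher, and the means of Pdgfra, Lum and Ly6a were above those of control without a call. The summed level of 7 Schwann cell markers ran from 258 to 334 CPM in control and from 369 to 516 CPM in cKO libraries, without overlap and with none called, and the pericyte marker Rgs5 was called higher (23.7 and 54.8 CPM). The part of these markers in the difference of Dag1 was not tested.

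Dmd had 593, 663, 437 and 528 CPM in uninjured control libraries and 313, 362, 409 and 385 CPM in uninjured cKO libraries. The groups did not overlap by this CPM with TMM factors. With library size alone they did, at 429.6 CPM in cKO replicate 3 and 407.1 CPM in control replicate 4, and in TPM too. The difference did not pass the test, at a log2 fold change of -0.47 ± 0.19 (SE) and an adjusted p of 0.148. Its homologue Utrn had 1036, 1019, 695 and 1044 CPM against 585, 946, 733 and 868 CPM, groups that overlapped, at -0.15 ± 0.19. By CPM with TMM factors, lower without overlap were thus 2 of the 8 members tested, against 9.18% of all genes. Of these members only Dag1 stayed apart with library size alone and in TPM. Dmd is X-linked, and Xist and the Y-linked Ddx3y were both detected in every library, at 26.1 to 124 and at 24.8 to 110 CPM. Of the Y-linked genes looked at, Eif2s3y ran from 35.1 to 46.8 CPM in uninjured control and from 6.81 to 30.8 CPM in uninjured cKO libraries without a call, and Ddx3y was called lower after injury in control MuSCs. Their part in the values of Dmd was not tested.

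Among the sarcoglycans, Sgcb had 55.4, 73.8, 60.5 and 77.0 CPM in control libraries and 27.2, 20.8, 63.0 and 39.5 CPM in cKO libraries. Only cKO replicate 3 reached the control range, and the log2 fold change was -0.72 ± 0.31 at an adjusted p of 0.176. Sgca and Sgce differed by 0.20 ± 0.33 and -0.08 ± 0.33 on the log2 scale, about or below their standard errors. Sgcd was too low to be tested, with 0, 3, 2 and 2 counts in control libraries and 9, 5, 8 and 5 counts in cKO libraries. Every cKO library had more counts than any control library, although 3 of the 4 cKO totals were below all control totals. Sspn gave -0.47 ± 0.26 at an adjusted p of 0.310. Dtna pointed the other way, with 34.8, 25.2, 24.4 and 30.2 CPM in control and 74.6, 47.8, 44.4 and 31.3 CPM in cKO libraries, at 0.92 ± 0.33 and an adjusted p of 0.0944. Over the 8 members tested the median log2 fold change was -0.31, against 0.058 over all genes. With library size alone the median of all genes shifted to 0.244, and 6 of 8 members lay below the median of all genes under either scaling.

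**Figure D2:**
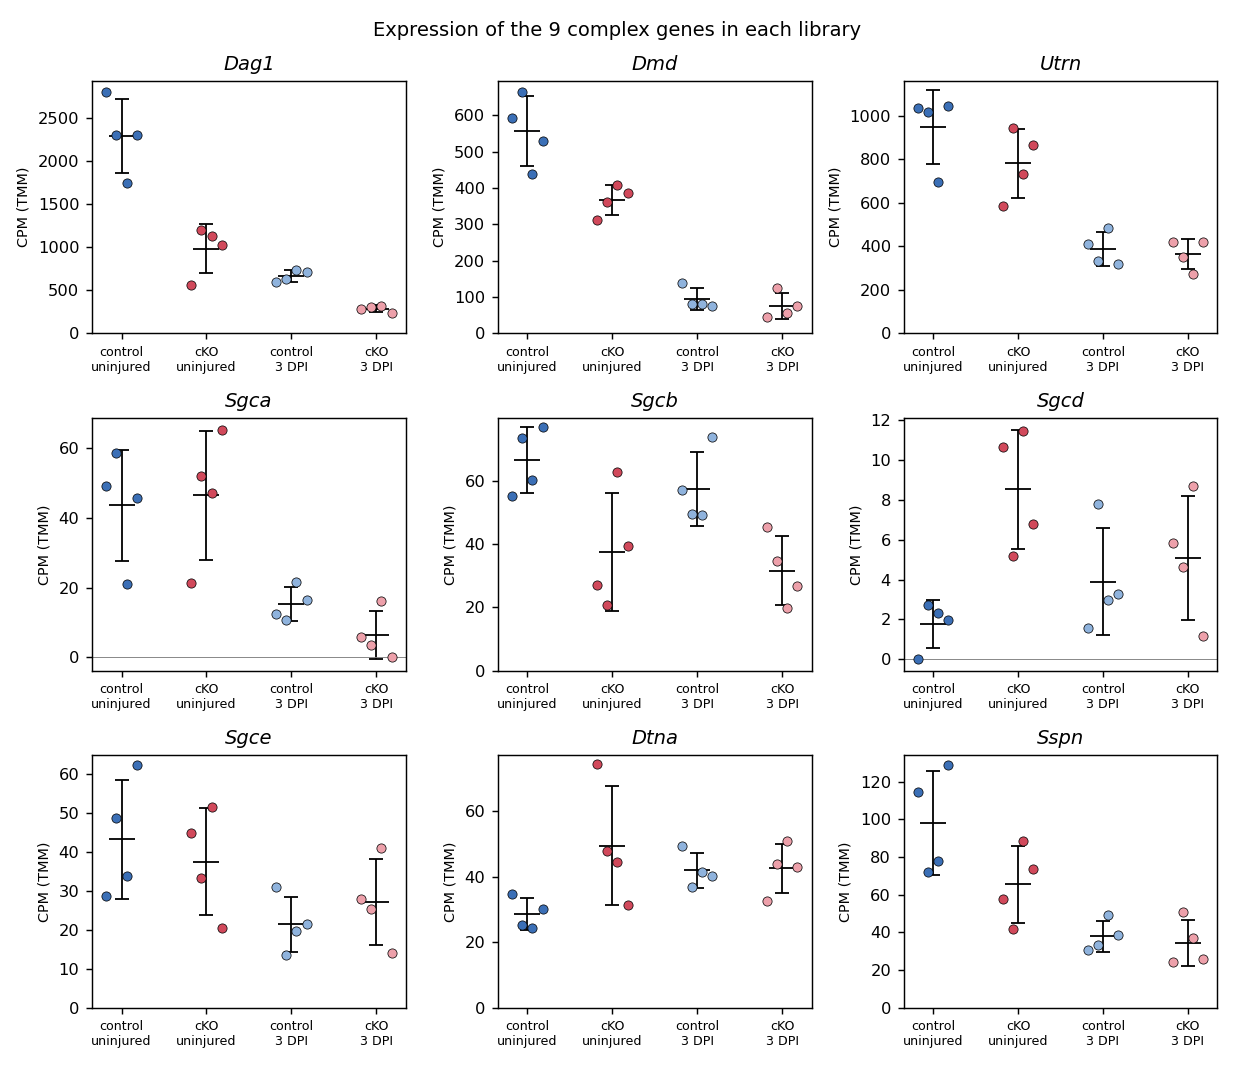
CPM of each of the 9 genes by group, with a point for each library and the mean ± SD (n = 4); the vertical axis differs between genes. Dag1 separates all libraries labelled cKO from all control libraries at both states, and Dag1, Dmd and Utrn are lower in every 3 DPI library than in every uninjured library of the same genotype.

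The same contrast 3 days after injury asked whether activated MuSCs differ. No member was called, and no gene of the 14559 tested was called with edgeR (0% lower and 0% higher), although 521 genes were lower and 841 higher at an unadjusted p under 0.05. DESeq2 called 17 genes lower and 5 higher, limma's robust fit 0 and 1, and limma-voom 0 and 0. Dag1 had 592, 637, 742 and 714 CPM in control libraries and 286, 308, 320 and 237 CPM in the libraries labelled cKO. The groups were far apart, with no overlap. The log2 fold change was -1.17 ± 0.20 (SE), 2.26-fold lower, at an unadjusted p of 6.8e-05, rank 2 of all genes, and an adjusted p of 0.418. The call depended on 1 library: without replicate 3 of the libraries labelled cKO, the log2 fold change was -1.26 at an adjusted p of 0.00457, in a fit with 13 genes called lower and 3 higher. DESeq2 on all 8 libraries gave -1.17 at an adjusted p of 3e-05. Sample codes in the labels, whose meaning is not given, split the libraries into 2 against 2. Dag1 differed by -1.04 ± 0.27 within the code JH133 and by -1.37 ± 0.33 between control and cKO of the remaining codes. Among those remaining codes the control libraries carried JH140 and the libraries labelled cKO JH139. In uninjured libraries too, no code occurred in both genotypes. Codes and genotype cannot be told apart in either case. The MuSC markers were again lower by their sums, as given above, and 0 of 9 were called. The summed level of the macrophage markers was 4030, 4840, 5110 and 4870 CPM in control libraries and 4700, 3490, 1580 and 3340 CPM in those labelled cKO, groups that overlapped in the first cKO library only, with 0 of 6 called. The part of these markers in the difference of Dag1 was not tested.

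Sgcb was the other member without overlap at 3 DPI, with 57.1, 49.6, 49.2 and 74.1 CPM in control libraries and 45.6, 34.6, 19.8 and 26.8 CPM in the libraries labelled cKO. Its log2 fold change was -0.82 ± 0.38 at an unadjusted p of 0.0519 and an adjusted p of 0.532. In TPM its groups overlapped, at 29.8 in cKO replicate 1 and 29.2 in control replicate 3. By CPM with TMM factors, lower without overlap were 2 of 8 members, against 4.87% of all genes. Dmd had 139, 79.7, 80.7 and 76.5 CPM in control libraries and 44.4, 125, 57.0 and 74.6 CPM in those labelled cKO, groups that overlapped widely, at -0.27 ± 0.36. Utrn, Dtna and Sspn differed by -0.05 ± 0.22, 0.07 ± 0.36 and -0.09 ± 0.41 on the log2 scale. Sgca, at 0 to 22 counts per library, gave -1.20 ± 0.90.

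Injury changed more of the complex than genotype did by the number of calls. Of the sample codes only JH140 occurred in both states of control and only JH139 in both states of cKO libraries. The part of the codes in the injury differences was not tested. In control MuSCs Dag1, Dmd, Utrn, Sgca and Sspn were called lower at 3 DPI, 5 of the 8 members tested, and none was called higher. Of 15356 genes tested, 9.46% were called lower and 10.8% higher. With library size alone the counts of all genes went from 1452 lower and 1652 higher to 1066 and 1989, and the same 5 members were called. Dmd went from the uninjured control values above to 139, 79.7, 80.7 and 76.5 CPM, with every injured library far below every uninjured one. The log2 fold change was -2.55 ± 0.21 (SE), 5.84-fold lower, at an adjusted p of 3.55e-13. Dag1 was 3.31-fold lower, at -1.73 ± 0.19 and an adjusted p of 4.77e-10. Utrn reached 412, 334, 487 and 321 CPM at 3 DPI, 2.37-fold lower at -1.25 ± 0.19, with no overlap and an adjusted p of 1.39e-06.

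Sspn had 114, 72.0, 77.9 and 129 CPM in uninjured control libraries and 30.9, 33.1, 49.2 and 38.7 CPM at 3 DPI, at -1.31 ± 0.25 and an adjusted p of 6.49e-05. Sgca had 49.1, 58.5, 20.9 and 45.8 CPM before and 12.4, 10.7, 21.6 and 16.5 CPM after injury, at -1.45 ± 0.36 and an adjusted p of 0.00187. Uninjured replicate 3 overlapped the injured group. Sgca was the member whose call was lost in 1 fit, that of all 16 libraries together, at -1.5 and an adjusted p of 0.0863, and it was not tested where at least 10 counts in every library were required. Sgce gave -1.001 ± 0.34 at an adjusted p of 0.0267, just outside the threshold, and was called with RLE size factors (adjusted p = 0.0191), without uninjured control replicate 1 (adjusted p = 0.0136), without uninjured control replicate 3 (adjusted p = 0.0131) and without 3 DPI control replicate 1 (adjusted p = 0.0186). Sgcb stayed near its uninjured level, at -0.17 ± 0.25. Dtna had 49.4, 37.0, 41.3 and 40.3 CPM at 3 DPI, all above the uninjured control libraries, but 0.58 ± 0.31 did not pass the test at an adjusted p of 0.189. The median over the 8 members was -1.28 against 0.066 over all genes. All 9 MuSC markers were called lower and all 6 macrophage markers higher in this comparison. Of 6 fibro-adipogenic progenitor markers 4 were called higher and 2 lower, the myofiber markers Ckm and Ttn were called higher, and Acta2 and Notch3 of the smooth muscle and pericyte list lower. The part of these markers in the differences of the members was not tested.

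In the libraries labelled cKO 3 of 8 members were called lower and none higher after injury, against 1.61% lower and 2.43% higher of 14578 genes. Dmd was 5.09-fold lower at -2.35 ± 0.31 and an adjusted p of 0.000307. Dag1, at 286, 308, 320 and 237 CPM after injury, was 3.56-fold lower at -1.83 ± 0.26 and an adjusted p of 0.000527. Utrn had 418, 351, 273 and 421 CPM after injury and was 2.24-fold lower at -1.16 ± 0.23 and an adjusted p of 0.00725. The injured libraries of these 3 genes lay below all uninjured cKO libraries. Utrn lost its call when any of 5 of the 8 libraries was left out, namely uninjured replicates 2, 3 and 4 and 3 DPI replicates 2 and 4, at adjusted p-values up to 0.0412, on the rescaled counts (adjusted p = 0.0558) and with the replicate number as a block. Sgca had 21.3, 51.9, 47.2 and 65.4 CPM before and 5.84, 3.46, 16.1 and 0 CPM after injury. The groups did not overlap, at -2.90 ± 0.80 and an adjusted p of 0.0475, so that Sgca was not called. It was called with limma's robust fit (adjusted p = 0.00228), with DESeq2 (0.00262), in the fit of all 16 libraries (0.00232) and without 3 DPI replicate 3 (-3.88, adjusted p = 5.72e-05). Sspn, Sgce, Sgcb and Dtna gave -0.98 ± 0.41, -0.53 ± 0.50, -0.31 ± 0.49 and -0.28 ± 0.41. Without 3 DPI replicate 3, 513 genes were called lower and 803 higher in place of 235 and 354, and without any other of the 8 libraries 134 to 167 lower and 214 to 283 higher. Of the markers, 7 of 9 for MuSCs were called lower and 5 of 6 for macrophages higher. Notch3 of the smooth muscle and pericyte list was called lower too. The part of these markers in the differences of the members was not tested.

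**Figure D3:**
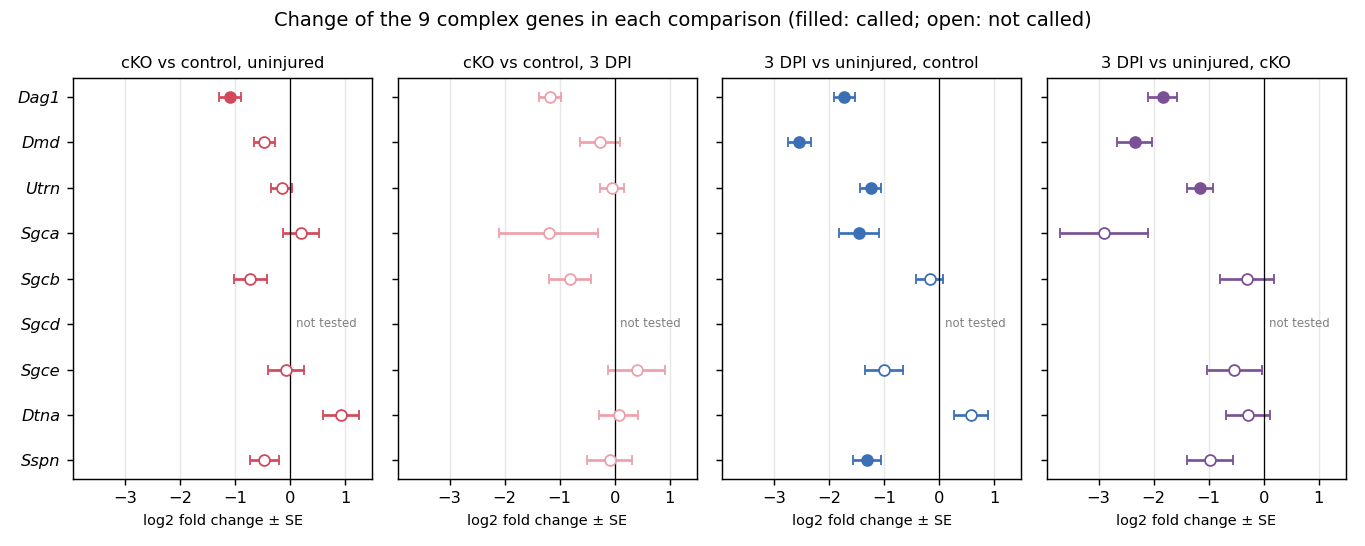
Log2 fold change ± SE of each gene in the 4 comparisons, with filled points for called genes. Dag1 is the only filled point for genotype, and Dag1, Dmd and Utrn are filled in both injury comparisons.

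**Figure D4:**
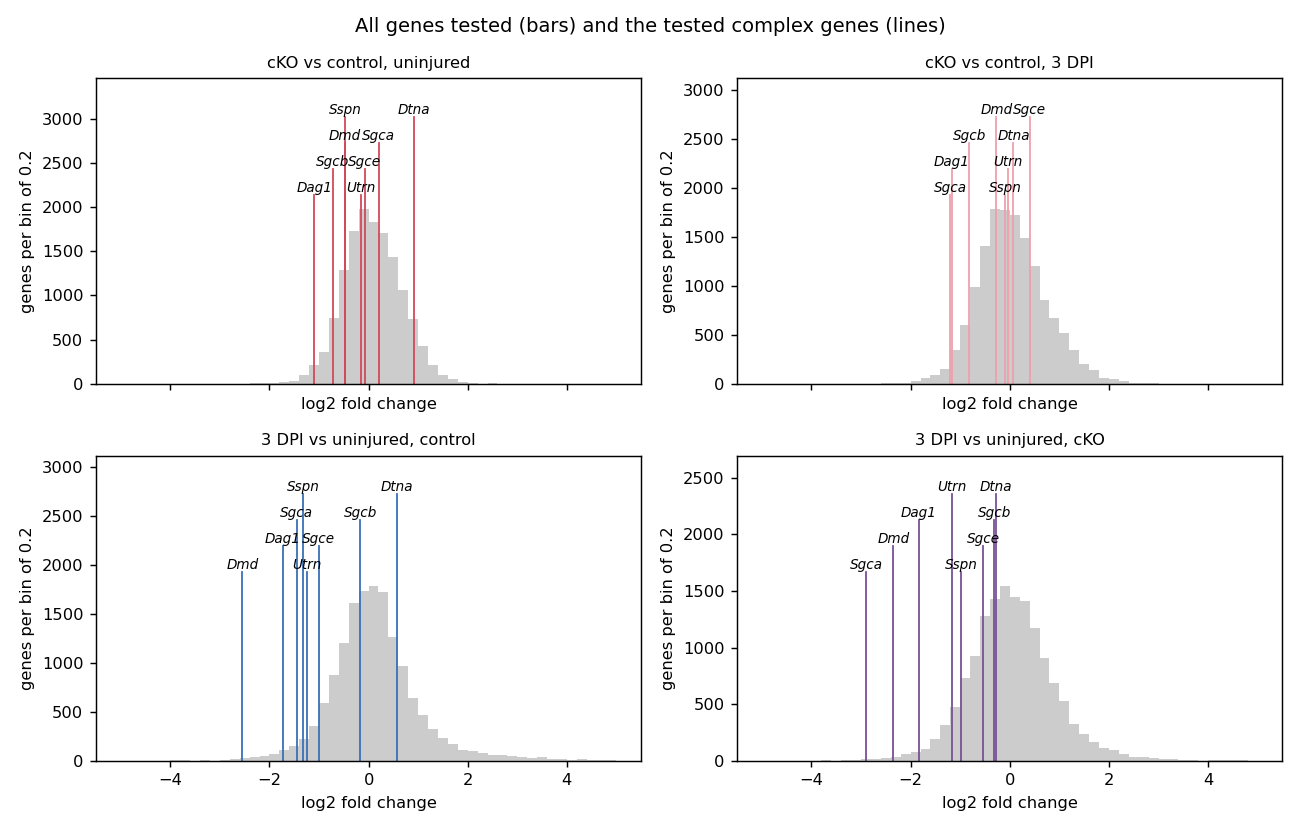
Histograms of the log2 fold changes of all genes tested, in bins of 0.2, with a line for each tested member. After injury most members lie in the lower part of the distribution, with medians of -1.28 in control and -1.07 in cKO.

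Whether injury acted differently by genotype was asked by the interaction term on all 16 libraries. Of 16822 genes, 0.0178% (3 genes) were called lower and 0% higher, and no member was among them. Without 3 DPI replicate 3 of the libraries labelled cKO the counts were 9 and 4, and without any other library 1 or 2 lower and 0 higher, each time without a member. At an unadjusted p under 0.05, 0 of 8 members passed, against 5.74% of all genes (365 lower and 601 higher). For Dag1 the interaction was -0.003 ± 0.29 (SE) on the log2 scale. For Dmd it was 0.29 ± 0.38, for Utrn 0.19 ± 0.32 and for Sgcb -0.019 ± 0.50. The widest values were those of Sgca at -1.36 ± 0.82 and Dtna at -0.76 ± 0.48. DESeq2 called 15 genes lower and 9 higher in this term and limma's robust fit 51 and 28, again without a member.

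The balance of the members was described by ratios of TPM within each library. Dag1 over Utrn was 5.53 ± 0.53 (SD, n = 4) in uninjured control and 2.84 ± 0.54 in uninjured cKO, and 4.04 ± 0.82 and 1.89 ± 0.62 at 3 DPI. Dmd over Utrn was 0.527 ± 0.058 in uninjured control and 0.219 ± 0.063 in 3 DPI control, and 0.429 ± 0.073 and 0.190 ± 0.094 in cKO. For these 4 differences, and for Dag1 over Dmd between uninjured genotypes (10.6 ± 1.36 against 6.77 ± 1.61), the groups gave an exact permutation p of 0.0286, the smallest that 4 against 4 libraries allow. Over the 12 such tests made the adjusted p was 0.0686. That smallest p lies above the threshold of 0.02 used for calls, so no ratio could have passed it, and the ratios are given as a description.

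The other genes of the complex were read from a list of 12. In uninjured MuSCs Drp2, the dystrophin-related protein 2, was called lower in cKO, at group means of 1219 and 673 CPM and -0.73 ± 0.19 (adjusted p = 0.0124), as 1 of 8 tested. That call was lost when any of 6 of the 8 libraries was left out (all but control replicate 3 and cKO replicate 4), at adjusted p-values up to 0.0675, and with library size alone (0.036), on the rescaled counts (0.0703) and in the fit of all 16 libraries (0.0782). Of the syntrophins, which bind dystrophin and dystrobrevin, Sntg1 gave 1.05 ± 0.38 (adjusted p = 0.104) and Sntb2 0.68 ± 0.27 (adjusted p = 0.131). Nos1, the neuronal nitric oxide synthase that syntrophin holds at the membrane, gave 0.52 ± 0.21 (adjusted p = 0.156). At 3 DPI Drp2 had group means of 177 and 85.6 CPM without overlap, at -0.999 ± 0.30 and an adjusted p of 0.452. After injury Drp2 was called lower in control (-2.75 ± 0.20, adjusted p = 3.36e-15) and in cKO MuSCs (-3.03 ± 0.30, adjusted p = 2.86e-05).

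Outer dystroglycan binds its ligands only after sugar chains are built on it by a set of glycosyltransferases and their helpers. Of 18 such genes in the table none of 16 tested was called between uninjured genotypes. Pomk gave -0.59 ± 0.35 and Pomgnt1 -0.55 ± 0.34, with unadjusted p-values of 0.104 and 0.108. At 3 DPI 0 of 15 were called, and the smallest p was that of Gmppb at 0.136. After injury 0 of 16 were called in cKO MuSCs, and Gmppb gave 1.74 ± 0.57 at an adjusted p of 0.108. The medians of this list stayed between -0.178 and 0.369 over the 4 comparisons, against 0.001 to 0.066 over all genes.

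Of 12 genes for matrix ligands of dystroglycan, 0 were called between genotypes in uninjured MuSCs and 0 at 3 DPI. The genes named from this list and the next were picked once their values were known. The laminin chain Lama4 came nearest, at 0.95 ± 0.27 and an adjusted p of 0.0263 in uninjured MuSCs. After injury Lama2, the α2 chain of the laminin of the fiber's basal lamina, was called lower in control MuSCs (-2.16 ± 0.20, from 858 to 186 CPM) and in cKO MuSCs (-2.39 ± 0.22, from 577 to 115 CPM). Perlecan (Hspg2) was called lower in both, at -1.39 ± 0.19 and -1.53 ± 0.21, and biglycan (Bgn) higher in both, at 0.99 ± 0.19 and 1.33 ± 0.30. The call of Bgn in cKO MuSCs was lost when any of 7 of the 8 libraries was left out, all but 3 DPI replicate 3, at adjusted p-values up to 0.0742, on the rescaled counts (0.107) and with the replicate block (0.0847). Lama4 was called higher in control MuSCs (1.18 ± 0.24) and gave 0.50 ± 0.32 in cKO MuSCs, and its interaction of -0.58 ± 0.40 did not pass.

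A further list of 10 genes held proteins described with dystrophin or dystroglycan in MuSCs and muscle, and the α7β1 integrin, the second laminin receptor of muscle. Between uninjured genotypes 3 of 10 were called lower and 0 higher, against 2.63% and 0.584% of all genes, in a list chosen with earlier results known. Itga7 gave -1.21 ± 0.20 (adjusted p = 0.000105), Itgb1 -0.79 ± 0.20 (adjusted p = 0.0118) and Ank3, an ankyrin that places dystrophin and dystroglycan in muscle fibers, -0.99 ± 0.20 (adjusted p = 0.00151). On the rescaled counts the calls of Itga7 (adjusted p = 0.0395), Ank3 (0.0703) and Itgb1 (0.122) were lost, in the fit of all 16 libraries those of Ank3 (adjusted p = 0.0211) and Itgb1 (0.0612), and with library size alone that of Itgb1 (0.0433). Itgb1 lost its call when any of 6 of the 8 libraries was left out, all but control replicate 3 and cKO replicate 4, at adjusted p-values up to 0.0868. Itga7 encodes the α7-integrin that was used to sort the cells. At 3 DPI Itga7 gave -1.66 ± 0.32 at an adjusted p of 0.420, rank 7 of all genes. Mark2 and Pard3, kinase and scaffold of cell polarity, were not called between genotypes, and Pard3 was called lower after injury in control MuSCs (-1.19 ± 0.21). Ank3 and Ank2 were called lower after injury in control MuSCs at -1.79 ± 0.20 and -1.53 ± 0.21. The adaptor Grb2, which binds dystroglycan, was called higher after injury in control (1.70 ± 0.23) and in cKO MuSCs (1.88 ± 0.35), where the call was lost without uninjured replicate 1 or 4, at adjusted p-values up to 0.0276, on the rescaled counts (0.0303) and with the replicate block (0.0261). The remaining calls of this list after injury were Itga7, lower in control (-1.02 ± 0.19) and in cKO (-1.502 ± 0.35), and Plec, higher in control (0.60 ± 0.19). The call of Itga7 in cKO was lost when any of 7 of the 8 libraries was left out, all but 3 DPI replicate 3. It was also lost with limma's robust fit (adjusted p = 0.0456), with library size alone (0.02), on the rescaled counts (0.0918) and with the replicate block (0.0777). The call of Plec was lost when any of 6 libraries was left out, all but uninjured replicate 4 and 3 DPI replicate 1, at adjusted p-values up to 0.147. It was also lost in 7 of the 10 other fits, at adjusted p-values up to 0.121 or, with DESeq2, a fold change under 1.5.

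**Figure D5:**
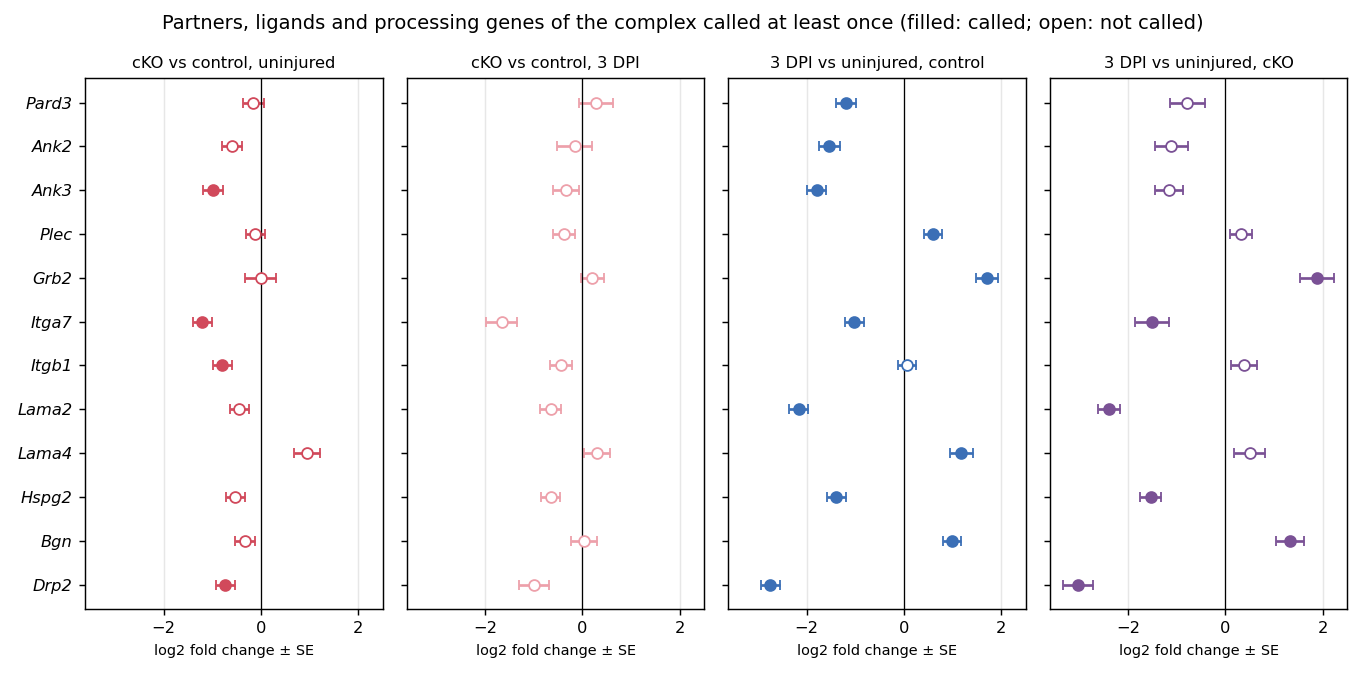
Log2 fold change ± SE of 12 genes of the lists that were called at least once in the 4 comparisons, with filled points for calls. Drp2, Lama2 and Hspg2 are filled on the lower side in both injury comparisons.

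The genes most like Dag1 and Dmd were sought by the root mean square (RMS) distance of log2 CPM over the 16 libraries, each gene centred on its own mean, among 16976 genes. Nearest to Dag1 were Sytl2, Gnas and Des, at distances of 0.277, 0.322 and 0.351, against a median of 1.31 over all genes. Des, the muscle intermediate filament desmin, had group means of 898 and 514 CPM in uninjured control and cKO and 373 and 133 CPM at 3 DPI. Nearest to Dmd were Zim1, Lama2 and Abca8b, at 0.277, 0.344 and 0.357, against a median of 1.47. Lama2 is the ligand described above, with group means of 858, 577, 186 and 115 CPM in the same order. These distances describe the libraries analysed, whose largest difference is that of injury.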

How the data were processed

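Per the labels and the study's methods, RNA of sorted MuSCs (1 ng) went, after ribosomal RNA depletion, into CORALL total RNA libraries, read as paired ends of 50 bases. The authors trimmed reads, aligned them with STAR and estimated counts per gene with Salmon on GRCm38 (the submitters' processing notes name Trim Galore 0.6.7, STAR 2.6.1d, Salmon 1.5.2, GRCm38 and mm10). They deposited expected counts, which need not be whole, and a second table of the same counts rescaled for transcript length, from which TPM was computed here.

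Estimated counts were rounded. Genes were filtered with filterByExpr, scaled by TMM and tested with edgeR 4.0.16 (R 4.3.3, robust quasi-likelihood F-test, Benjamini-Hochberg adjustment over all genes tested). Each comparison was fitted on its own 8 libraries, and the interaction on all 16. Calls needed an adjusted p under 0.02 and a fold change over 1.5. Standard errors came from the log2 fold change and its F. The tests were run on simulated data with the same spread set for every comparison. The spread fitted to the real libraries (biological coefficient of variation) ran from 0.276 for injury in control to 0.523 for injury in cKO. CPM used TMM factors over all 16 libraries, so folds differ slightly from ratios of mean CPM. The members and lists were chosen with earlier results of these data known. All 9 members, Terf2, called genes and up to 3 more with the smallest p from the lists of other complex and dystroglycan-processing genes, and the 3 genes most like Dag1 and Dmd (mean log2 CPM of 3 or more) were named. Alternatives were limma 3.58.1 (robust and voom), DESeq2 1.42.0, other scalings and filters, 1 fit of all libraries, the rescaled counts, a replicate block, the label codes and leaving out each library. Results for some genes of the lists are not reported here.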

Additional observations from a re-analysis of the deposited data

Results flagged for a closer look

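In 2 of 40 groups of 4 libraries looked at, 1 library lay far from the other 3, with a gap to its neighbour that took up most of the group's range, past Dixon's 95% critical value. Chance alone marks about 1 in 20 groups. Dmd had 139.0 CPM in 3 DPI control replicate 1 and 76.5 to 80.7 CPM in the other replicates, at 0.934 of the range. Utrn had 695.3 CPM in uninjured control replicate 3 and 1019 to 1044 CPM in the other replicates, at 0.928 of the range. Both genes were called lower after injury in control MuSCs in each fit that left out 1 of the 8 libraries.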

How the results depend on the processing

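The number of members called was 1 in uninjured MuSCs and 0 on the rescaled counts. At 3 DPI it was 0, and 1 (Dag1) with DESeq2. After injury 5 members were called in control and 4 to 6 over the alternatives, with Sgce gained and Sgca lost in some. In cKO MuSCs 3 were called and 2 to 4 over the alternatives, with Sgca gained and Utrn lost in some. Leaving out each library gave 0 to 1 at 3 DPI. The log2 fold change of Dag1 at 3 DPI then ran from -1.26 to -1.11 and its adjusted p from 0.00457 to 0.939. In uninjured MuSCs these ran from -1.22 to -0.92 and from 0.000133 to 0.00646. No result changed direction past the threshold under any alternative run. With library size alone the median of all genes moved from 0.001 to 0.107 at 3 DPI, from 0.066 to 0.229 after injury in control and from 0.007 to 0.125 in cKO MuSCs, and 4 members in place of 6 were below 0 in each genotype comparison.

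Counts of all genes moved by over 1.5 times in these fits. Between uninjured genotypes, 370 lower and 82 higher became 70 and 12 in the fit of all libraries, 11 and 6 on the rescaled counts, 351 and 151 with limma's robust fit and 376 and 190 with at least 10 counts in every library. After injury in control MuSCs, 1452 and 1652 became 734 and 861 in the fit of all libraries, and 1084 and 1088 on the rescaled counts. In cKO MuSCs, 235 and 354 became 618 and 633 with limma's robust fit, 425 and 568 with DESeq2, 483 and 721 in the fit of all libraries, and 109 and 174 on the rescaled counts. At 3 DPI the fit of all libraries called 3 lower and 0 higher. The causes were not tested.

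The replicate numbers did not pair the libraries, with correlations of -0.11 to 0.111 between same-numbered libraries, and not every library correlated best with its own number. With the replicate block, Dag1 gave -1.13 (adjusted p = 0.000101) between uninjured genotypes and -1.18 (adjusted p = 0.789) at 3 DPI, Utrn after injury in cKO MuSCs gave -1.16 (adjusted p = 0.0373), and 144 genes were called lower and 220 higher there. Low counts limit Sgcd, Sgca and Sgce, and intervals of single libraries were not used.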
